A study of Homo sapiens with 6 samples.

Results

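The 10 genes described here build and restrain NF-kB, the transcription factor of inflammatory and stress signalling. They are the subunit genes RELA, REL, RELB, NFKB1 and NFKB2, the IkB inhibitor genes NFKBIA, NFKBIB and NFKBIE, the kinase gene IKBKB and the feedback gene TNFAIP3. They were picked by symbol from 61860 genes in the deposited table, and each had 1 row. All libraries came from SH-SY5Y, a human neuroblastoma line with neuron-like features, differentiated with all-trans retinoic acid and made insulin resistant by a 24 h exposure to insulin at 100 nM together with D-glucose at 30 mM. The 3 control libraries (IR control) had that treatment alone. The 3 treated libraries (IR+Oligonol) also had Oligonol, a polyphenol preparation from lychee fruit, at 500 ng/mL for 24 h. The comparison asks how Oligonol altered expression in these insulin-resistant cells; no cells without that induction were analysed here. The line is a single tumour-derived one, and the labels do not say whether replicates came from separate cultures. Every p-value is set against the differences among these 6 libraries, which may be technical in part.

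NF-kB proteins are dimers of the 5 subunits, held in the cytoplasm by IkB proteins. When a receptor such as a TNF or Toll-like receptor is engaged, a chain of adaptors and ubiquitin ligases switches on the IkB kinase complex (CHUK, IKBKB and the scaffold IKBKG). That complex marks IkB for destruction by the proteasome, and the freed dimers enter the nucleus. A second, slower branch works through processing of the NFKB2 product and its partner RELB. Several genes of the pathway, NFKBIA and TNFAIP3 among them, are known as targets of NF-kB itself, which closes a negative feedback loop. In neurons the pathway is known for roles in survival, plasticity and responses to injury.

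Sequences before the start sites are shown because such feedback is known to run through binding sites there. RefSeq promoters (GRCh38.p14) were found for 7 of the 10 genes, with 12 annotated starts in all, and no entry was found for RELB, NFKBIE and IKBKB. The 250 bases before each start were searched on both strands for the kappaB consensus, the 10-base sequence that NF-kB dimers bind. Of the 12 starts 7 had a match, in 6 genes, and the starts of RELA had none. Of all 35116 annotated starts 9.96% had a match. The windows below are 30 bases long, read 5′ to 3′ on the strand of the gene, with matching bases in capitals. A further 2 sites before NFKB2, which hold 3 matches, are not shown. Where matches overlap, the run of capitals is longer than 10 bases.
NFKBIA, chr14:35404811-35404840, minus strand: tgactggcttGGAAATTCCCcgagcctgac
REL, chr2:60881517-60881546, plus strand: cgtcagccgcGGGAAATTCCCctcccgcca
NFKB1, chr4:102501300-102501329, plus strand: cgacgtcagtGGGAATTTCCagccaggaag
NFKB2, chr10:102394461-102394490, plus strand: gaaacgtcatGGGAATTCCCCcctccgggg
NFKB2, a later start, chr10:102395674-102395703, plus strand: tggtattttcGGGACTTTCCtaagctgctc
NFKBIB, chr19:38899931-38899960, plus strand: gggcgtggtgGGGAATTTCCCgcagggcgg
TNFAIP3, chr6:137867188-137867217, plus strand: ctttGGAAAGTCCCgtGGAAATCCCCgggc

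The whole stretch before the start of NFKBIA (chr14:35404750-35404999, minus strand) gives the setting of its match, whose nearest base lies 72 bases before the start.
NFKBIA, 250 bases: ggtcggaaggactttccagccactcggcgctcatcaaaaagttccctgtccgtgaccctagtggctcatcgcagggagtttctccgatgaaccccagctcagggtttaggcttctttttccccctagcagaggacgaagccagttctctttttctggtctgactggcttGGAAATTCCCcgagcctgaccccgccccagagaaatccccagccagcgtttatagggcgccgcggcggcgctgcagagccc
Genes that carry a match went in different directions in the comparison below: NFKBIA, NFKBIB and NFKB2 were lower with Oligonol, REL was higher, and NFKB1 did not pass the test. A match is a description of letters and no measure of binding.

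Estimated counts summed to 19457923 to 32209583 per library. Protein-coding genes held 1552568 to 2010665 of them in controls and 2093711 to 2401015 with Oligonol, so the scaling of libraries matters for every direction given here. Levels are CPM, the estimated count scaled to a common library size by TMM, a method that aligns the bulk of genes. The deposited values behave as if divided by transcript length, by a fit described below that does not check itself. Levels are compared between genes on that reading. Any effect of the GC content of transcripts, also described below, stays in them. The SH-SY5Y label was met by its markers: 10 neuroblast genes, DBH among them, summed to 156 to 185 CPM in controls and 109 to 145 with Oligonol. Myeloid markers summed to 0.834 to 1.66 CPM in controls and 0.818 to 1.41 with Oligonol, with C1QA at 0 throughout. Glial markers summed to 1.73 to 2.27 and 1.76 to 2.25 CPM. Lymphoid markers summed to at most 0.240 CPM, with MS4A1 and CD2 at 0 throughout. Mesenchymal markers summed to 45.5 to 65.1 CPM in controls and 39.9 to 43.2 with Oligonol. The part of the neuroblast and mesenchymal differences in the results below was not tested.

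Oligonol went with lower levels of 6 of the 9 members that could be tested and with a higher level of REL, by TMM scaling. The 6 were RELA, RELB, NFKB2 and all 3 IkB inhibitor genes. By library totals alone the direction of all 6 turned. NFKB1 and IKBKB did not pass the threshold, and TNFAIP3 had too few counts to be tested. The test was edgeR's quasi-likelihood test with Benjamini-Hochberg adjustment over 16574 genes and a threshold of 0.05, and it called 48.9% of all tested genes, 26.0% higher and 23.0% lower. The member share of 7 in 9 therefore stands beside a background in which about every other gene was called. Groups did not overlap for 7 of the 9 tested members, against 62.6% of all tested genes. The median log2 fold change was -0.70 over the 9 members and 0.15 over all tested genes.

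**Figure D1:**
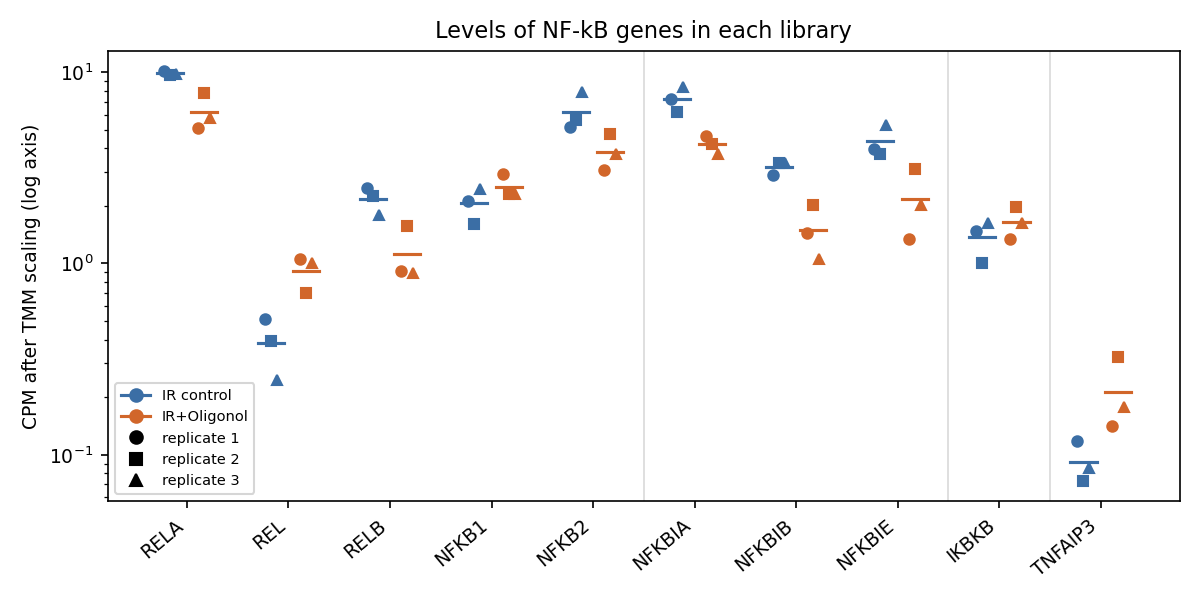
Level of each of the 10 genes in each library, in CPM after TMM scaling on a log axis. Points are libraries, with a shape for each replicate number, and bars are group means. RELA, RELB, NFKB2 and the 3 IkB inhibitor genes are lower in every IR+Oligonol library than in any control, REL and TNFAIP3 are higher, and NFKB1 and IKBKB overlap.

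RELA encodes the transactivating subunit of the classical NF-kB dimer and had the highest level of the 10 genes in both groups. It lies on chromosome 11 (GRCh38.p13, 65653599 to 65663090). It stood at 10.1, 9.64 and 9.79 CPM in the controls and at 5.08, 7.74 and 5.72 CPM with Oligonol. The controls lay close together, and Oligonol 2 lay nearest to them. RELA fell from 9.83 ± 0.221 CPM to 6.18 ± 1.39 (SD, n = 3), a log2 fold change of -0.67 (SE 0.20, adjusted p = 0.0273 by edgeR).

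REL encodes c-Rel, a transactivating subunit best known from lymphocytes, and was the scarcest subunit. It lies on chromosome 2 (60881491 to 60931612). It stood at 0.511, 0.395 and 0.245 CPM in the controls and at 1.05, 0.697 and 1.00 CPM with Oligonol, with every treated library above every control. REL rose from 0.384 ± 0.133 to 0.917 ± 0.192 CPM (SD, n = 3), a log2 fold change of 1.24 (SE 0.36, adjusted p = 0.0236 by edgeR). It was the only member called higher. DESeq2 gave the same direction without passing the threshold (adjusted p = 0.0860). The deposited estimated counts of 4.20 to 39.36 look small, but a read of a long transcript is worth little on this scale. By a read unit fitted to the low genes of each library, REL rested on about 107 to 573 reads if the median length of its protein-coding transcripts, 6826.5 nt, applied.

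RELB encodes the partner of the processed NFKB2 product in the slower branch. It stood at 2.48, 2.24 and 1.80 CPM in the controls and at 0.909, 1.56 and 0.891 with Oligonol (chromosome 19, 45001461 to 45038192). The groups did not overlap, and the log2 fold change was -0.98 (SE 0.28, adjusted p = 0.0221 by edgeR). NFKB2 encodes the precursor that this branch processes, and stood at 5.18, 5.60 and 7.82 CPM in the controls and 3.06, 4.72 and 3.75 with Oligonol (chromosome 10, 102394110 to 102402524). It fell by 0.70 on the log2 scale (SE 0.24, adjusted p = 0.0392 by edgeR), with control 3 highest.

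NFKB1 encodes the precursor of the DNA-binding partner of RELA. Its groups overlapped: 2.13, 1.60 and 2.46 CPM in the controls and 2.92, 2.31 and 2.30 with Oligonol (chromosome 4, 102501330 to 102617302). The log2 fold change was 0.27 (SE 0.22, adjusted p = 0.321 by edgeR), so a change was not shown.

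All 3 IkB inhibitor genes were lower by TMM scaling. NFKBIA encodes IkB-alpha, the fast-turning inhibitor that NF-kB itself induces (chromosome 14, 35401079 to 35404749). It stood at 7.20, 6.20 and 8.31 CPM in the controls and at 4.62, 4.20 and 3.74 with Oligonol. The groups did not overlap, and NFKBIA fell by 0.79 on the log2 scale (SE 0.18, adjusted p = 0.0126 by edgeR). NFKBIB encodes IkB-beta, the slower-turning inhibitor (chromosome 19, 38899700 to 38908893). It stood at 2.90, 3.34 and 3.33 CPM in the controls and at 1.45, 2.01 and 1.05 with Oligonol. Every treated library lay well below the controls, a log2 fold change of -1.10 (SE 0.26, adjusted p = 0.0126 by edgeR). NFKBIE encodes IkB-epsilon (chromosome 6, 44258166 to 44265788). It stood at 3.98, 3.73 and 5.31 CPM in the controls and at 1.34, 3.12 and 2.02 with Oligonol. Oligonol 2 was again the treated library nearest to the controls, and the log2 fold change was -1.03 (SE 0.31, adjusted p = 0.0275 by edgeR).

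IKBKB encodes the IkB kinase subunit that phosphorylates IkB proteins in the classical branch (chromosome 8, 42271302 to 42332460). It stood at 1.47, 1.01 and 1.63 CPM in the controls and at 1.34, 1.98 and 1.63 with Oligonol. The groups overlapped and the log2 fold change was 0.24 (SE 0.25, adjusted p = 0.445 by edgeR). TNFAIP3 encodes a ubiquitin-editing enzyme that shuts the pathway off and is a known NF-kB target (chromosome 6, 137867214 to 137883314). Its deposited estimated counts were 1.98, 1.13 and 1.46 in the controls and 5.26, 8.34 and 6.14 with Oligonol, too few for the filter. Scaled, these came to 0.118, 0.0731 and 0.0853 CPM against 0.141, 0.324 and 0.177, with every treated library above the controls. By the fitted read unit they rested on about 8 to 42 reads at the median length of its protein-coding transcripts. Tested without the filter, TNFAIP3 had a log2 fold change of 1.29 (SE 0.65, adjusted p = 0.239 by edgeR), so a change was not detectable at this depth. That unfiltered test called 10.9% of its 42070 genes.

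In controls the order of levels ran RELA, NFKBIA, NFKB2, NFKBIE, NFKBIB, RELB, NFKB1, IKBKB, REL and TNFAIP3. Ranges of neighbours overlapped for NFKBIA and NFKB2, for NFKB2 and NFKBIE, for RELB and NFKB1 and for NFKB1 and IKBKB, although NFKBIA was above NFKB2 in 3 of 3 control libraries. With Oligonol the order of means was RELA, NFKBIA, NFKB2, NFKB1, NFKBIE, IKBKB, NFKBIB, RELB, REL and TNFAIP3, so NFKB1 passed 3 genes and IKBKB passed NFKBIB and RELB. Ranges of neighbours from NFKB1 down to REL overlapped there, and NFKBIA was above NFKB2 in only 1 of 3 libraries. RELA stayed apart from NFKBIA at the top, and REL from TNFAIP3 at the bottom, with no overlap in either group. Transcript GC ran from 39.0% for REL to 65.2% for RELB, so these orders and the changes between them carry any GC effect.

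Left-out libraries changed how many members passed, not their signs. All 6 lower members stayed negative and REL stayed positive in each of the 6 fits that left out 1 library. NFKBIB passed in 6 of 6 such fits (adjusted p of edgeR 0.00389 to 0.0490), NFKBIA in 5, NFKBIE in 3, RELB, REL and NFKB2 in 2 each and RELA in 1. Without Oligonol 3 only 1 member passed, without Oligonol 1 only 2, and without control 2 or control 3 only 3 each. Those fits called 20.7%, 22.2%, 33.9% and 32.8% of all tested genes. Without control 1, 5 passed, where 43.3% of genes were called. All 7 passed without Oligonol 2, whose values lay nearest to the controls for RELA, RELB, REL, NFKB2, NFKBIB and NFKBIE; that fit called 53.8% of genes. A filter of 10 counts in every library left 8 members, of which RELB and the 3 inhibitor genes passed, where 59.9% of 11178 genes were called.

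The sign of most members' fold changes depended on the scaling of the libraries. The median log2 fold change of all tested genes was 0.15 by TMM, 0.55 with the authors' own scaling constants and 1.53 by library totals alone. Relative to that median by TMM, RELA stood at -0.82, NFKBIB at -1.25 and REL at 1.10; another scaling shifts all genes nearly alike and so leaves these distances nearly as they are by construction. On the authors' scaling 2 members were called higher, NFKB1 and REL, and 1 lower, NFKBIB, where 48.6% of all tested genes were called, 38.6% higher and 10.1% lower. By library totals alone 5 members were called, all of them higher, where 68.4% of genes were called, 68.1% higher and 0.223% lower. RLE size factors and TMM from protein-coding genes called the same 7 members, beside 48.7% and 49.3% of all tested genes. DESeq2 with its own size factors called the same 6 members lower (43.1% of all genes, 24.1% lower), and so did limma-voom (48.3%, 24.0% lower).

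**Figure D2:**
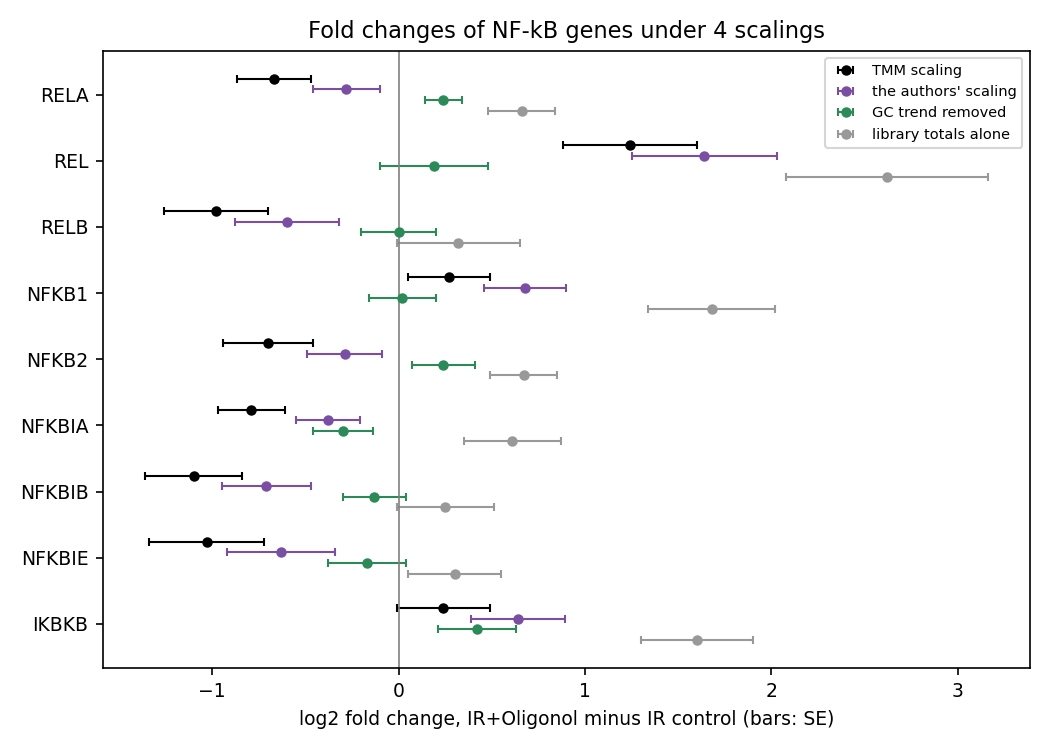
Log2 fold change of IR+Oligonol minus IR control for the 9 tested genes under 4 scalings, with the standard error as bars. TMM scaling puts 6 genes below 0, library totals alone put all 9 above 0, and with the GC trend removed no gene passes the threshold.

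The members' directions followed the GC content of their transcripts. REL, the only one called higher, had the lowest transcript GC at 39.0%. NFKB1 (48.9%) and IKBKB (52.6%), which did not pass, came next, and the 6 lower members had 55.3% (NFKBIA) to 65.2% (RELB). Protein-coding genes at large did the same: in the band of 37 to 41% GC, 74.0% of 1291 tested genes were called higher and 0.155% lower. In the band of 48 to 53%, 12.5% of 2001 genes were higher and 6.95% lower, and in the band of 55 to 66%, 0.552% of 3806 were higher and 69.3% lower. These bands were drawn round the members' values.

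With each library's GC trend removed, 0 of 9 members passed edgeR's test, and 1 (RELA) had an unadjusted p under 0.05. That fit called 5.45% of 16200 genes. NFKBIA then stood at -0.30 (SE 0.16, adjusted p = 0.280 by edgeR), NFKBIB at -0.13 (SE 0.17) and NFKBIE at -0.17 (SE 0.21). REL stood at 0.19 (SE 0.29, adjusted p = 0.754 by edgeR), and IKBKB, the largest, at 0.42 (SE 0.21, adjusted p = 0.242 by edgeR). RELA and NFKB2 turned positive, at 0.24 each (SE 0.10 and 0.17, adjusted p = 0.171 and 0.402 by edgeR). Removing the trend also removes any true change that runs with GC, and the 2 cannot be told apart here. No member passed edgeR's test when a library was left out as well, with 0 or 1 at an unadjusted p under 0.05. Those fits called 8.06%, 0.00% and 0.302% of genes without control 1, 2 and 3, and 0.0123%, 3.82% and 0.00% without Oligonol 1, 2 and 3. A block for the replicate number called the same 7 members (42.4% of all genes), and a block with the GC trend removed called no gene (0.00%), where 3993 of 16200 had an unadjusted p under 0.05 by edgeR.

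**Figure D3:**
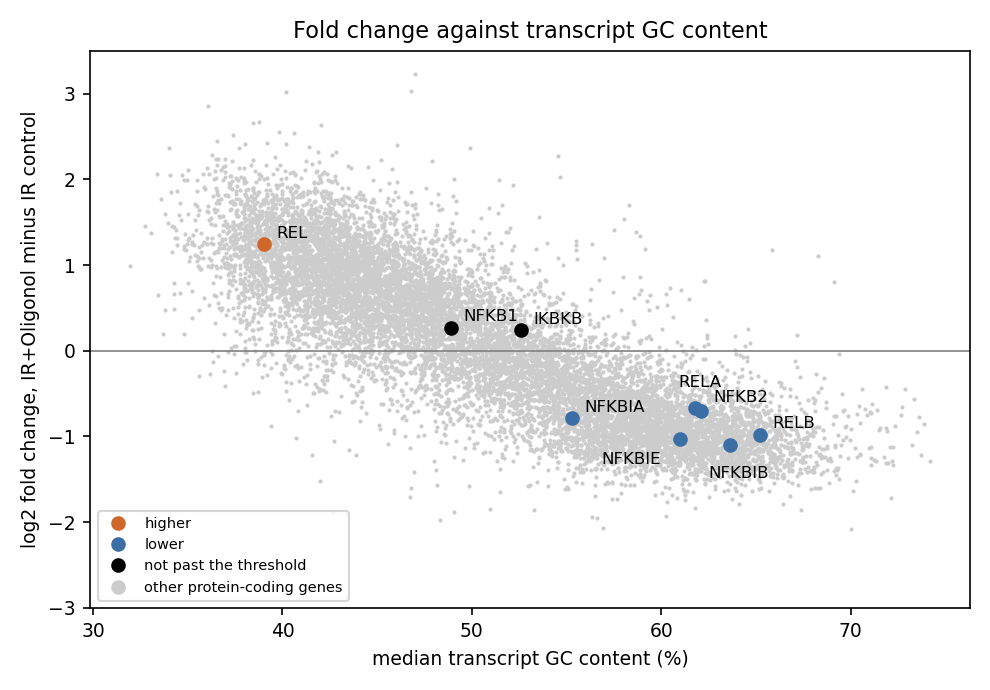
Log2 fold change (IR+Oligonol minus IR control, TMM scaling) against median transcript GC content, for tested protein-coding genes in grey and the 9 tested members in colour. The members lie within the cloud, from REL at 39.0% GC and 1.24 to RELB at 65.2% and -0.98.

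Ratios between genes of the same library do not depend on library scaling, though they do still carry any GC effect. REL amounted to 0.0508, 0.0410 and 0.0251 of RELA in the controls and to 0.207, 0.0900 and 0.175 with Oligonol. The mean ratio rose from 0.0390 ± 0.0130 to 0.157 ± 0.0606 (SD, n = 3), 4.04 times as high, with no overlap of the groups. Transcript GC is 39.0% for REL and 61.8% for RELA. With the GC trend removed their log2 fold changes were 0.19 and 0.24. The part of GC in the ratio was not tested. Among the 5 subunits together, REL held 1.88% ± 0.711 in controls and 6.50% ± 2.12 with Oligonol, and NFKB1 held 9.93% ± 1.52 and 17.6% ± 4.49. Both shares were higher in every treated library. RELA held 47.7% ± 3.00 and 42.1% ± 3.24 and NFKB2 29.9% ± 5.05 and 26.2% ± 2.35, with overlapping groups. RELA therefore stayed the largest of the 5 in each library.

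The RNA ratio of NFKBIA, the classical inhibitor gene, to RELA overlapped between the groups. It was 0.715, 0.644 and 0.848 in the controls and 0.911, 0.542 and 0.653 with Oligonol. The treated libraries lay on both sides of the controls. With the GC trend removed NFKBIA had a log2 fold change of -0.30 and RELA one of 0.24, neither past the threshold. The 3 IkB inhibitor genes summed to 0.690, 0.682 and 0.766 of the 5 subunits in the controls and to 0.570, 0.548 and 0.498 with Oligonol. This ratio was lower in every treated library, at 0.538 ± 0.0369 against 0.713 ± 0.0465 (SD, n = 3). The shares of NFKBIA, NFKBIB and NFKBIE among the 3 inhibitors overlapped between the groups. These ratios are descriptions and were not tested.

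**Figure D4:**
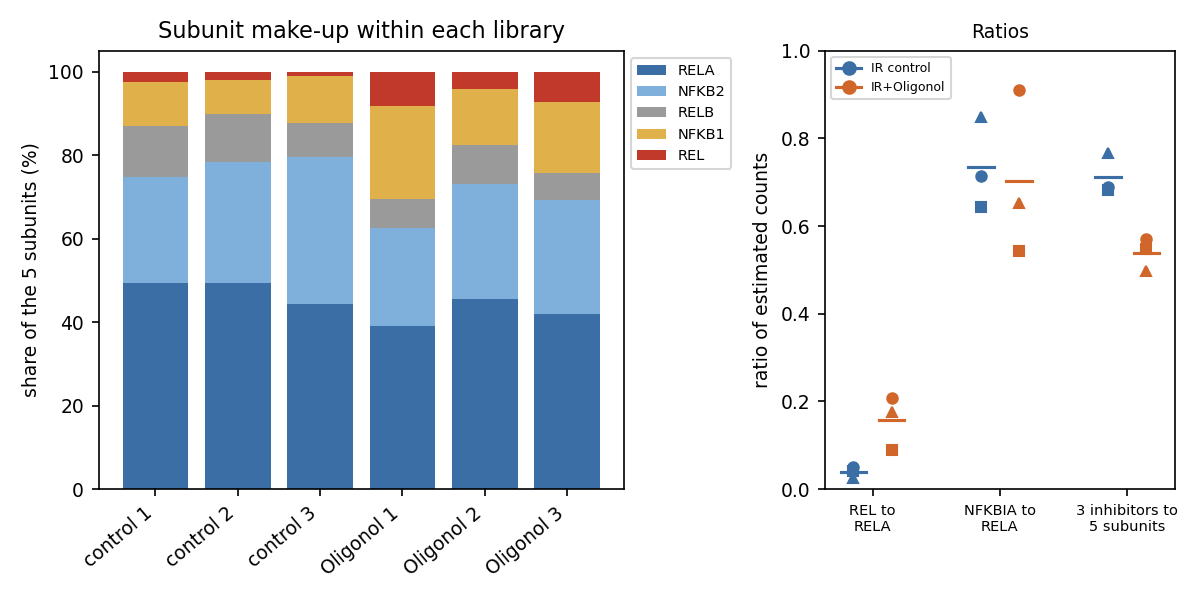
Left, the share of each subunit gene in the summed estimated counts of the 5 subunits (%), by library. Right, 3 ratios of estimated counts, with libraries as points (shape by replicate number) and means as bars. REL to RELA is higher and the 3 inhibitors to 5 subunits lower in each IR+Oligonol library, while NFKBIA to RELA overlaps.

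The other genes of the pathway were mixed in direction. Of 79 kinases, adaptors, regulators and receptors, 56 could be tested, of which 24 rose and 13 fell by edgeR with TMM scaling, with a median log2 fold change of 0.50. Of all tested genes 26.0% rose and 23.0% fell. DESeq2 called 14 higher and 14 lower, beside 3144 and 3999 of all 16574 tested genes. The authors' scaling called 30 higher and 3 lower, beside 38.6% and 10.1% of all tested genes. By library totals alone 43 were called, all of them higher, where 68.1% of all tested genes were called higher. Without control 3, Oligonol 1 or Oligonol 3 the number called went from 37 to 21, 14 and 12. The share of all tested genes went from 48.9% to 32.8%, 22.2% and 20.7%. The 24 risen genes had a median transcript GC of 41.3% and the 13 fallen ones 62.9%. With the GC trend removed 1 of 56, TNFRSF12A, passed by edgeR (8 at an unadjusted p under 0.05).

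Upstream kinases and adaptors carry the signal from receptors to the IkB kinases, and 12 of 29 rose and 8 fell, beside 26.0% and 23.0% of all tested genes. CHUK, the partner of IKBKB in the kinase complex, rose from 0.636 ± 0.125 to 1.76 ± 0.129 CPM (1.48 on the log2 scale, SE 0.24, adjusted p = 0.00703 by edgeR). IKBKG, the scaffold of that complex, fell from 4.40 ± 0.799 to 2.27 ± 0.522 CPM (-0.96, SE 0.23, adjusted p = 0.0136 by edgeR). IKBKG has a near-identical partial copy in the genome, so its values are uncertain. Its call was lost without Oligonol 1 or Oligonol 3 (adjusted p of edgeR 0.0529 and 0.0558). It was also lost with no filter and on the authors' scaling (0.0511 and 0.0541 by edgeR). The 3 genes of the complex thus had 3 different outcomes, and IKBKB to CHUK went from 2.74, 1.30 and 2.74 in the controls to 0.714, 1.22 and 0.915 with Oligonol. CHUK stood at 0.37 (adjusted p = 0.405) and IKBKG at -0.03 (adjusted p = 0.938) with the GC trend removed, by edgeR.

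MAP3K7, the kinase TAK1 that acts on the IkB kinases, rose with a log2 fold change of 1.35 (SE 0.26), and its ubiquitin-binding adaptor TAB2 with 1.07 (SE 0.21). TBK1, a kinase related to the IkB kinases, had the largest of these rises, from 0.986 ± 0.440 to 3.75 ± 1.14 CPM (1.91, SE 0.37, adjusted p = 0.00889 by edgeR). TRAF2 and TRAF6, adaptors of receptor complexes, moved apart, TRAF2 at -0.94 (SE 0.22) and TRAF6 at 1.35 (SE 0.32). All 3 genes of the linear ubiquitin chain complex, which attaches the chains that recruit IKBKG, fell: RNF31 at -0.74 (SE 0.24), RBCK1 at -0.80 (SE 0.23) and SHARPIN at -1.09 (SE 0.27). TRAF2, TRAF6 and these 3 were singled out after their values were seen. By library totals alone TRAF2 (0.42), RNF31 (0.61), RBCK1 (0.54) and SHARPIN (0.23) turned positive. With the GC trend removed MAP3K7 stood at 0.23, TAB2 at 0.10, TBK1 at 0.77, TRAF2 at -0.03 and TRAF6 at 0.65. RNF31 stood at 0.0, RBCK1 turned to 0.17 and SHARPIN stood at -0.12 in that fit. None of these genes passed the threshold there. With no filter RNF31, RBCK1 and SHARPIN all lost their calls (adjusted p of edgeR 0.116, 0.0905 and 0.0594). On the authors' scaling RNF31 and RBCK1 lost theirs (0.202 and 0.135 by edgeR), and SHARPIN kept its own (0.048). Transcript GC was 37.4% for MAP3K7, 40.7% for TAB2, 37.2% for TBK1, 61.4% for TRAF2 and 44.5% for TRAF6. It was 58.5% for RNF31, 63.8% for RBCK1 and 64.5% for SHARPIN. In the band of 37 to 41% GC, 74.0% of tested protein-coding genes were called higher. In the band of 55 to 66% GC, 69.3% of tested protein-coding genes were called lower.

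Inhibitors and the machinery of IkB turnover had 11 of 22 genes higher and 4 lower, beside 26.0% and 23.0% of all tested genes. The genes of the ubiquitin ligase that tags phosphorylated IkB did not all pass. FBXW11, which recognises IkB, rose from 3.45 ± 0.150 to 7.13 ± 0.451 CPM (1.05 on the log2 scale, SE 0.16, adjusted p = 0.00670 by edgeR). CUL1, its scaffold, rose at 1.01 (SE 0.22), and BTRC and SKP1, singled out after their values were seen, at 0.68 (SE 0.20) and 0.75 (SE 0.20). RBX1, its catalytic subunit, was at -0.09 (SE 0.29, adjusted p = 0.819 by edgeR), and is named for the same reason. ITCH and TAX1BP1, partners of TNFAIP3 in shutting off the pathway, rose at 1.18 (SE 0.23) and 1.24 (SE 0.26). CYLD, a deubiquitinase that also restrains it, rose from 0.808 ± 0.271 to 1.51 ± 0.269 CPM (0.92, SE 0.30, adjusted p = 0.0340 by edgeR). With the GC trend removed FBXW11 stood at 0.48 (adjusted p = 0.0693 by edgeR) and CYLD at -0.01, while SKP1 turned to -0.17 and RBX1 stood at -0.75 (adjusted p = 0.180 by edgeR). CUL1 stood at 0.26, BTRC at 0.06, ITCH at 0.29 and TAX1BP1 at 0.26 in that fit, none past the threshold. The call of CYLD was also lost with DESeq2 (adjusted p = 0.0967) and, by edgeR, with a block for the replicate number (0.0633), with no filter (0.0861) and without control 1, control 3, Oligonol 1 or Oligonol 3 (adjusted p 0.0842 to 0.109).

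Receptors were mostly too scarce to test, with 5 of 21 tested, of which 1 rose and 1 fell, beside 26.0% and 23.0% of all tested genes. TNFRSF12A, the receptor for the cytokine TWEAK and an activator of both NF-kB branches, stood at 13.1, 17.3 and 17.6 CPM in the controls and at 3.53, 7.17 and 4.25 with Oligonol. It fell by 1.69 on the log2 scale (SE 0.30, adjusted p = 0.00774 by edgeR) and by 0.73 with the GC trend removed (SE 0.15, adjusted p = 0.0464 by edgeR). With the GC trend removed it lost its call under a block for the replicate number (adjusted p = 0.0734 by edgeR), where 0 of 16200 genes were called. No pathway gene passed without control 2, control 3 or Oligonol 1, 2 or 3. Those fits called 0.00%, 0.302%, 0.0123%, 3.82% and 0.00% of genes. With so few genes called, these losses are not particular to TNFRSF12A. IL1RAP, a coreceptor for interleukin-1 signals, rose at 1.37 (SE 0.33) from control estimated counts of 3.14 to 4.38. Its call was lost with DESeq2 (adjusted p = 0.107) and, by edgeR, with no filter (adjusted p = 0.0504) and without Oligonol 1 or Oligonol 3 (0.0606 and 0.0607). TNFRSF1A, the main TNF receptor, was at 2.13 ± 0.179 and 1.32 ± 0.459 CPM (adjusted p = 0.0565 by edgeR), and AGER at 1.14 ± 0.357 and 0.694 ± 0.175 CPM (adjusted p = 0.111 by edgeR).

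Of 37 known target genes 20 could be tested, and 5 fell and 2 rose, beside 23.0% and 26.0% of all tested genes. The authors' scaling gave 5 higher and 1 lower, beside 38.6% and 10.1% of all tested genes. By library totals alone 13 were called, all of them higher, where 68.1% of all tested genes were called higher. TNFAIP2 fell from 3.54 ± 0.837 to 1.38 ± 0.305 CPM (-1.37 on the log2 scale, SE 0.26, adjusted p = 0.00842 by edgeR). CSF1, a myeloid growth factor, fell at -0.97 (SE 0.23), BCL2L1, a survival gene, at -0.94 (SE 0.24) and ICAM1, an adhesion molecule, at -0.91 (SE 0.26). SOD2, the mitochondrial superoxide dismutase, rose from 11.0 ± 0.787 to 17.6 ± 2.25 CPM (0.68, SE 0.19, adjusted p = 0.0228 by edgeR). The called targets did not share a direction. The 5 fallen ones had a median transcript GC of 59.0% and the 2 risen ones 44.5%. With the GC trend removed TNFAIP2 stood at -0.49, CSF1 at -0.24, BCL2L1 at -0.35, ICAM1 at -0.13 and SOD2 at 0.31, none past the threshold. The part of GC in these changes was not tested. Without Oligonol 1 or Oligonol 3 the calls of CSF1, BCL2L1, ICAM1 and SOD2 were lost (adjusted p of edgeR 0.0536 to 0.0862), that of ICAM1 also without control 3 (0.0670) and that of SOD2 without any 1 control (0.0523 to 0.0872).

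CCL2, a chemokine and an abundant target here, stood at 27.1, 39.1 and 75.3 CPM in the controls and at 30.5, 27.3 and 29.2 with Oligonol. The controls were widely spread and the groups overlapped (log2 fold change -0.70, SE 0.37, adjusted p = 0.146 by edgeR). CXCL8, also a chemokine, was at 1.36 ± 0.474 and 1.58 ± 0.348 CPM (0.23, SE 0.29, adjusted p = 0.539 by edgeR). With the GC trend removed CXCL8 turned to -0.88 (SE 0.19, adjusted p = 0.0486 by edgeR), the only target to pass in that fit. CXCL8 too lost that call under a block for the replicate number (adjusted p = 0.111 by edgeR), where 0 of 16200 genes were called. No target passed without control 2, control 3 or any Oligonol library, where 0.00 to 3.82% of genes were called. With so few genes called, these losses are not particular to CXCL8. IL6 had at most 0.590 estimated counts in a library and TNF at most 2.76, so neither could be compared. Without control 2, control 3, Oligonol 1 or Oligonol 3 the number of targets called went from 7 to 4, 3, 1 and 1. The share of all tested genes went from 48.9% to 33.9%, 32.8%, 22.2% and 20.7%.

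**Figure D5:**
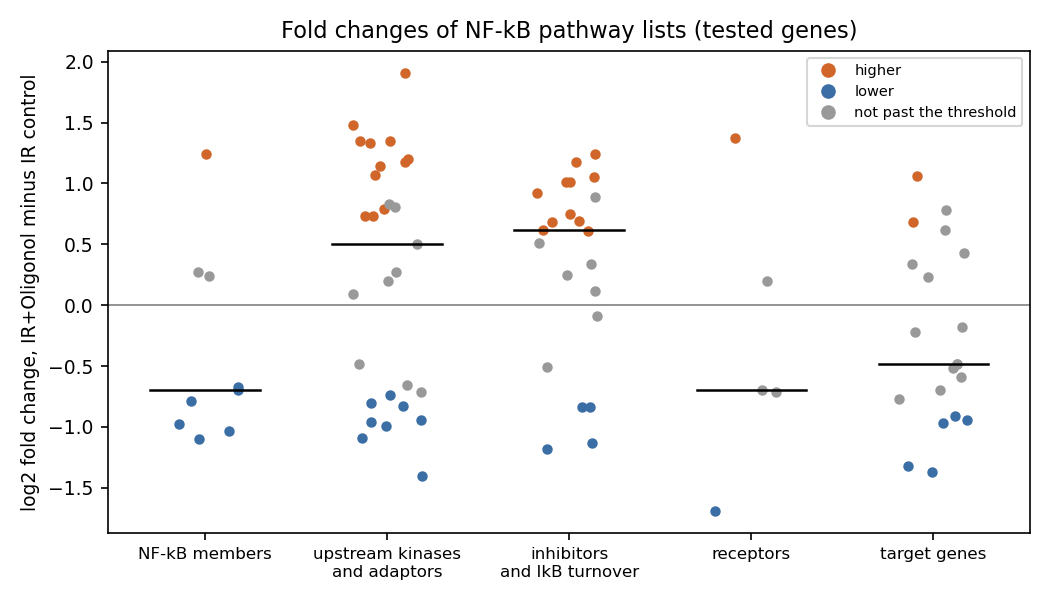
Log2 fold change (IR+Oligonol minus IR control, TMM scaling) of the tested genes of each list, coloured by edgeR's call at an adjusted p under 0.05, with the median as a black line. Medians are -0.70 for the members, 0.50 for upstream kinases and adaptors, 0.62 for inhibitors and IkB turnover, -0.70 for receptors and -0.48 for targets.

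Some values could hold reads of other genes. The deposited coordinates of RELA, REL, NFKBIB and TNFAIP3 overlap other gene models, SIRT2 in the case of NFKBIB, and the labels do not say whether counting used the strand. No member had values identical to those of another row in all 6 libraries. For bulk RNA, fewer cells with a transcript and less of it per cell cannot be told apart.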

How the data were processed

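Total RNA of 6 SH-SY5Y samples was sequenced as stranded libraries with paired reads of 100 nt, per the labels' protocols. Of tools and builds, the submitters' processing notes list FastQC, kallisto 0.46.1, edgeR and GRCh38.p13, with no role or order. The summing of transcript estimates to genes is a step not given in the sources used here. Estimated counts per gene were deposited, of which 99.0 to 99.1% of those above 0 were not whole, with a signal that the authors scaled. The deposited signal equals the estimated count times 1 constant per library and was used only for its constants.

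For low genes with 1 GENCODE 29 transcript of 500 to 1500 nt, a fragment length and a scale were fitted in each library so that values times effective length came out whole, and 69.4 to 71.6% lay within 0.05 of a whole number. Since the fit seeks whole numbers, this share checks nothing by itself. At a transcript length of 1000 nt, 1 read was worth 0.311 to 0.547 estimated counts.

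Estimated counts were rounded, filtered with filterByExpr, scaled by TMM and given to edgeR 4.0.16 in R 4.3.3 for its quasi-likelihood test (robust, group only, 2-sided), checked on simulated data. The deposited values behave as length-scaled abundances, so counting noise in this model is understated for short RNAs and overstated for long ones, which bears on the filter, SEs and p-values. Levels use unrounded values. SE is the one implied by the test. The GC trend was a spline with 5 degrees of freedom of log2 CPM (prior count 2) on transcript GC in protein-coding genes, used as an offset (97.7% of tested genes). Promoter sequences are RefSeq's (GRCh38.p14). Alternatives used DESeq2 1.42.0 and limma 3.58.1.

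The members and lists were chosen with earlier results of these data known. Named genes were all members, the 4 smallest p of each list and CHUK, IKBKG, TNFRSF1A, CYLD, IL6, TNF, CXCL8, CCL2, ICAM1 and SOD2, with exceptions stated where they occur.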

Additional observations from a re-analysis of the deposited data

How the results depend on the processing

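The number of members called was 7 with TMM, 2 with no filter on low counts, 4 with a filter of 10 counts in every library, 3 with the authors' scaling (added after the data were seen) and 0 with the GC trend removed (1 at an unadjusted p under 0.05, edgeR). Leaving out each library gave 1 to 7, and 0 in each of the 6 fits that also removed the GC trend, which were added too. For the 79 other pathway genes the count was 37, 13 with no filter, 1 with the GC trend removed, 12 to 42 over left-out libraries and 0 to 2 over those with the GC trend removed. For targets it was 7, 13 by library totals alone, 2 with no filter, 1 with the GC trend removed, 1 to 9 over left-out libraries and 0 to 2 over those with the GC trend removed. The share of all tested genes called moved with the setting too. It was 48.9% with TMM, 68.4% by library totals alone, 10.9% with no filter and 59.9% with 10 counts in every library. It was 48.6% with the authors' scaling and 5.45% with the GC trend removed. Over left-out libraries it was 20.7 to 53.8%, and 0.00 to 8.06% with the GC trend removed as well. The cause was not tested. RLE, TMM from protein-coding genes, DESeq2 and limma-voom kept all 3 totals within 1.5 times. However, DESeq2 took the other pathway genes from 24 higher and 13 lower to 14 and 14. It took all tested genes from 4304 higher and 3808 lower to 3144 and 3999.

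Signs turned by library totals alone for NFKB2 (0.67), RELA (0.66), RELB (0.32), NFKBIA (0.61), NFKBIB (0.25), NFKBIE (0.30), TNFRSF1A (0.63), AGER (0.64), TNFAIP2 (0.01), CSF1 (0.39), BCL2L1 (0.42), ICAM1 (0.47), IKBKG (0.41), CCL2 (0.77), TRAF2 (0.42), RNF31 (0.61), RBCK1 (0.54) and SHARPIN (0.23), as log2 fold changes, since that scaling moves the median of all genes to 1.53. By library totals RBX1 turned too, from -0.09 to 1.32 (adjusted p = 0.00794 by edgeR). With the GC trend removed signs turned for NFKB2 (0.24), RELA (0.24), AGER (0.08), CYLD (-0.01), CXCL8 (-0.88), RBCK1 (0.17) and SKP1 (-0.17).

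The labels do not say whether replicate numbers pair the samples. Deviations from the group means correlated at 0.0880, -0.0104 and -0.150 for same-numbered libraries. For differently numbered libraries they correlated at -0.188 to 0.195, and with so few libraries these values cannot decide the question. With the replicate number as a block 7 members, 29 other pathway genes and 6 targets were called. With the block and the GC trend removed 0, 0 and 0 were called by edgeR (3993 of all 16200 genes and 0 members at an unadjusted p under 0.05), and signs turned for NFKB2 (0.25), RELA (0.25), RELB (0.01), AGER (0.08) and CXCL8 (-0.87). The ratios REL to RELA and NFKBIA to RELA moved by less than 1 SD of their group with a geometric mean or a library left out: 0.0330 to 0.0459 and 0.133 to 0.191 for REL, 0.679 to 0.781 and 0.598 to 0.782 for NFKBIA, controls first. Depth limits TNFAIP3, IL6 and TNF.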
